A study of Mus musculus with 35 samples.

Results

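Genes for RNA-binding and translation factors of male germ cells, namely Ybx1, Ybx2, Dazl, Boll, Elavl1, Celf1, Tarbp2, Pabpc1 and Eif4g3, were followed in mice that lack SMG6, the endonuclease of nonsense-mediated mRNA decay (NMD). They were chosen by name for their roles, though with earlier results of these data known. They are 9 of the 24411 genes in the count tables, and all 9 passed the filter on low counts in every comparison. The study isolated pachytene spermatocytes (Spc), round spermatids (RS) and chromatoid bodies (CBs), the perinuclear RNA granules of round spermatids, from adult Smg6-cKO mice, Smg6(fx/fx);Ngn3Cre+, in which Cre under the Neurogenin 3 promoter removes one loxP-flanked Smg6 exon in early spermatogonia. Controls (CTRL) were littermates without Cre, Smg6(fx/fx) or Smg6(fx/wt), so that a loxP-flanked allele was present in both genotypes, on a mixed C57Bl/6J and SV129 background. Spc and RS came from sedimentation through a BSA gradient and gave 3 libraries of polyadenylated RNA per genotype. CBs were captured with an antibody to DDX4, and total RNA was sequenced in 4 CTRL and 3 cKO libraries. Cell fractions and CBs alike were isolated from several testes. Spermatogenesis of the cKO stops at the early round spermatid, which limits the RS and CB samples of the cKO as counterparts of the control ones.

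Spermatids stop transcription while their nuclei condense, and much of the protein they need later is made from mRNAs that were transcribed earlier and kept in ribonucleoprotein particles. The Y-box proteins YBX1 and YBX2 package such mRNAs and hold them back from ribosomes, DAZL and BOLL bind 3' untranslated sequences and act on translation, ELAVL1 and CELF1 bind AU-rich and GU-rich elements, and TARBP2 is a double-stranded RNA-binding partner of Dicer that is also known for the translation of protamine mRNA. PABPC1 coats the poly(A) tail, and EIF4G3 is a scaffold of the cap-binding complex eIF4F, which joins the cap to the ribosome and is needed for spermatocytes to leave meiotic prophase.

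Y-box proteins take their name from the Y box, an inverted CCAAT element, and the upstream sequences of both Y-box genes and of Dazl are shown because they hold that element, because Ybx2 and Dazl differ most in genotype effect between RS and CBs, and because Ybx1 is the paralog of Ybx2. They were taken from RefSeq (GRCm38.p6), 5' to 3' on the gene's own strand, from 250 bases before the RefSeq start to the last base before the start of the gene's most counted coding transcript in GENCODE, and capitals mark the searched motifs.
Ybx1 (chr4:119294605-119294763, minus strand): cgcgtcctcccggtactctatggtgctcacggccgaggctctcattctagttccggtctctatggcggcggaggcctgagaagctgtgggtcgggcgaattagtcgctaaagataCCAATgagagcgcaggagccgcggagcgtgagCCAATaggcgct
Ybx2 (chr11:69935649-69935795, plus strand): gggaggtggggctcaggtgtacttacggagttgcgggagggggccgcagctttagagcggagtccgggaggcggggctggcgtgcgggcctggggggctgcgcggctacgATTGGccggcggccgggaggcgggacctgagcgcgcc
Dazl (chr17:50293637-50293870, minus strand): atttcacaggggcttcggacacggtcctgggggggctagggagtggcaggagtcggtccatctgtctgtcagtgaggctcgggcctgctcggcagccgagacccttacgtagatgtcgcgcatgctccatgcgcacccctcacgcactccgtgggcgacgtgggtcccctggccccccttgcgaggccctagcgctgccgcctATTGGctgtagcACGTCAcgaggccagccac
The motifs searched on both strands were the Y box or CCAAT box (CCAAT or, read from the other strand, ATTGG), the GC box bound by Sp1 (GGGCGG, whose other strand reads CCGCCC), the palindromic E box of bHLH factors (CACGTG), and the core of the cAMP response element bound by CREM in spermatids (TGACGT, whose other strand reads ACGTCA). None of the 4 motifs contains another, and windows ran from 250 bases before to 50 after each RefSeq start. The CCAAT box began at -135, -103 and -52 from the start of Ybx1, at -140 and -87 in Ybx2 and at -47 in Dazl. Of the members, 8 of 9 had a window. The CCAAT box was in 6 of these 8 and occurred 2 or more times in 4 of them, Ybx1, Ybx2, Elavl1 and Tarbp2, whereas 37.4% of all 32817 windows held it and 11.7% held it 2 or more times. The GC box was in 4 of 8 (35.6% of all windows), the cAMP response core in Dazl only (7.51%) and the E box in none (7.15%). The windows of the members were GC-rich, with 63.3% in Ybx1, 78.0% in Ybx2 and 68.7% in Dazl against a median of 52.7%. The RefSeq start of Boll lay 1987 bases from the start of its most counted coding transcript. That of Celf1 lay 47223 bases from Celf1-207, which led by 234.9 mean counts to 234.8 for each of 3 others, and 2 of these begin at the RefSeq start.

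Depth was 38129415 to 49940226 counts per library in Spc and RS and 3965541 to 16699210 in CBs. Summed counts of cell type markers moved with genotype. The summed CPM (counts scaled to a fixed library total) of 10 late spermatid markers was 23600 to 29200 in CTRL RS and 2300 to 2470 in cKO RS, and also went from 4280-8380 to 498-1560 in Spc and from 2770-5930 to 414-651 in CBs. In RS, 10 spermatocyte markers went from 608-676 to 1260-1470 as a sum, 10 spermatid markers from 4700-4900 to 2740-3040, and 10 macrophage markers from 26.2-37.8 to 276-454, 6 Leydig cell markers from 5.85-6.43 to 33-346 and 5 erythroid markers from 16.6-19.3 to 76.2-294. The Sertoli cell sum (8 markers) went from 42.4-56.7 to 96.3-259 and that of spermatogonia (8 markers) from 30.8-37.3 to 72.9-117. In Spc the Leydig sum was 119-402 in CTRL and 572-1220 in cKO, the Sertoli sum 325-935 and 179-283, and the erythroid sum 11.7-23.6 and 1.68-3.75, the opposite of RS. Of 4 erythroid markers tested in Spc, 1 was lower and 3 did not pass. Scaled to the library total, the lower one, Alas2, had a log2 fold change of -3.93 (edgeR adjusted p = 0.0016). Hba-a1 and Hba-a2 were at 0.50 and Hbb-bs at -0.07. Sums without overlap in Spc were also those of macrophage (40.2-50.5 and 58.6-90.6), spermatid (2520-3160 and 2160-2480), spermatocyte (2350-2790 and 2810-3010) and spermatogonia markers (47.8-58 and 58.2-106). Taken singly in Spc, 0 of 8 spermatogonia markers passed edgeR's test, where 28.2% of all genes did. Of 10 spermatid markers 1 was lower, and of 10 spermatocyte markers 1 was higher and 1 lower. Of 10 macrophage markers 9 were higher and 1 lower, of 6 Leydig markers 2 were higher, and of 8 Sertoli markers 7 were lower. In CBs the spermatid sum went from 770-1290 to 384-617, the Leydig sum from 16.7-48.4 to 48.4-387, the Sertoli sum from 27.7-32.4 to 34.9-78.9 and that of spermatogonia from 25.4-32.3 to 41.7-96.1, while the spermatocyte, macrophage and erythroid sums overlapped. None of the markers in any list was at 0 in every library of a group, and their part in the results below was not tested. In bulk samples, fewer cells of a type and less RNA per cell cannot be told apart. The gene count of Smg6 itself passed no test in Spc (log2 fold change 0.22 ± 0.17 (SE), edgeR adjusted p = 0.36), RS (-0.01 ± 0.16, adjusted p = 0.97) or CBs (-0.03 ± 0.16, adjusted p = 0.91), and a count over the whole gene does not show the loss of one exon. The libraries of a group are separate samples in the labels, and the study calls those of Spc and RS biological replicates. As cells and CBs came from several testes, p-values measure the spread between samples only, not between single mice.

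In RS, the cKO held less Ybx1, Ybx2, Pabpc1 and Eif4g3 RNA relative to the rest of the transcriptome, slightly less Elavl1, and more Dazl, Boll and Celf1, while Tarbp2 did not pass the test. With edgeR's quasi-likelihood test and Benjamini-Hochberg adjustment over all 17492 genes, 8 of the 9 members changed (adjusted p of at most 0.05), 3 higher and 5 lower, and the same 8 did not overlap between genotypes. In this comparison 72.7% of all genes changed (38.4% higher and 34.3% lower) and 76.9% did not overlap, so a change as such was the rule in RS. None of the 9 reached the log2 fold change of 1.5 that the study used, which 26.4% of all genes passed, although with library size alone Dazl and Celf1 did (both at 1.54, adjusted p = 7.9e-05 and 1.5e-05). The median log2 fold change was -0.23 for the members and 0.11 for all genes. These values rest on TMM scaling. With library size alone as the scale, the median gene moved to 0.73 and the share of changed genes that were higher went from 52.8% to 76.0%. On that scale 5 members were higher, 1 was lower and 3 did not pass the test. Differences are therefore also given relative to the median gene, where the scale drops out. That these are the same under both scalings is so by construction and is no check of the scaling.

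The Y-box genes fell most. Ybx2 (ENSMUSG00000018554, GRCm38 chr11:69935796-69941605, plus strand), the germ cell member that stores mRNA in spermatids, had normalized counts of 113749, 106092 and 118208 in the 3 CTRL RS libraries and of 57194, 61802 and 62956 in the 3 cKO libraries. The highest cKO library was far below the lowest CTRL library. The log2 fold change was -0.88 ± 0.07 (SE; edgeR adjusted p = 1.1e-05), or 0.543-fold, and -0.99 relative to the median gene. It was -0.26 with library size alone (adjusted p = 6e-04), so Ybx2 was the one member that was lower on both scales. Ybx1 (ENSMUSG00000028639, chr4:119277981-119294604, minus strand), the widely expressed member of the family, had 60387, 54504 and 55793 in CTRL RS and 33983, 38405 and 39138 in cKO RS, again without overlap. Its log2 fold change was -0.60 ± 0.07 (edgeR adjusted p = 0.00017) and -0.71 relative to the median gene, but 0.02 with library size alone (adjusted p = 0.81).

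**Figure D1:**
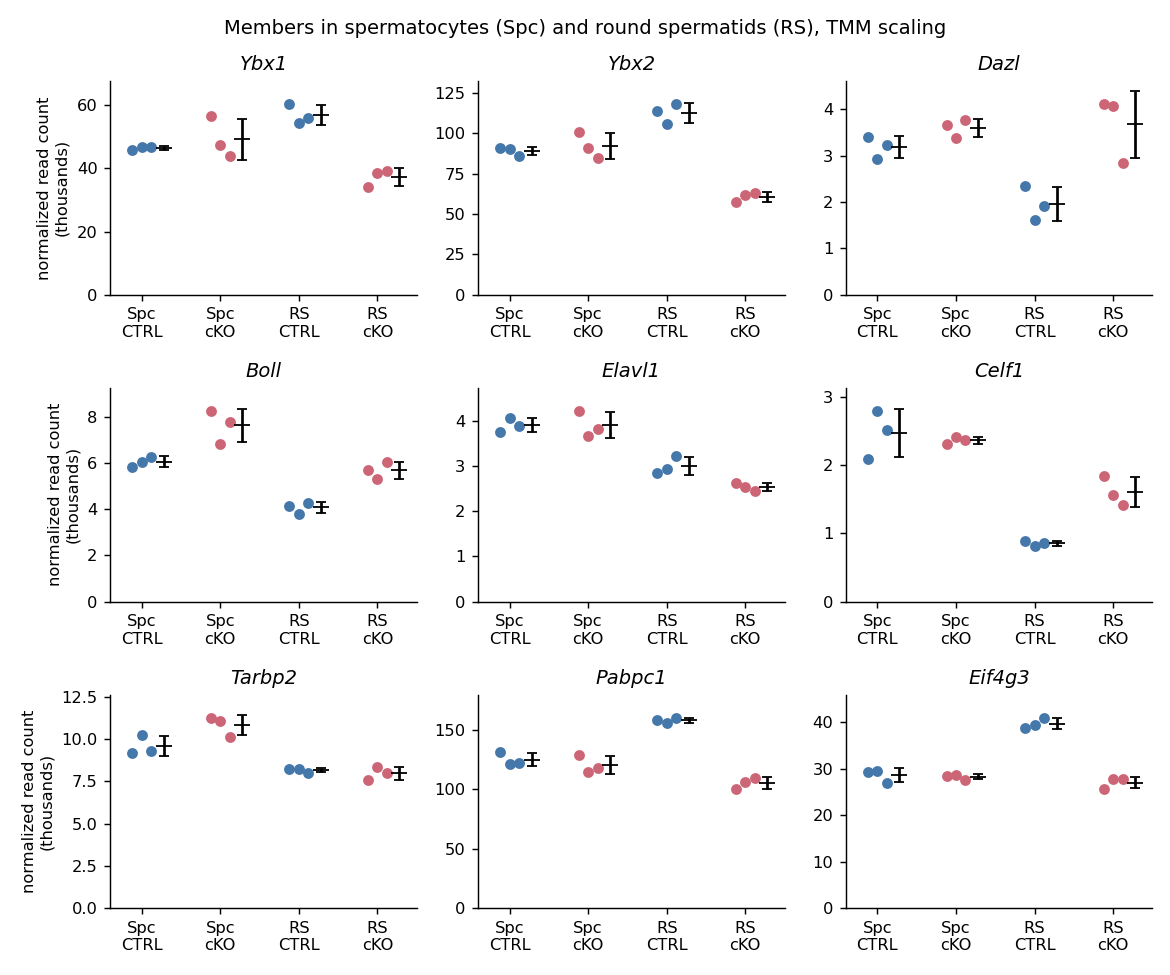
TMM-normalized counts (axis in units of 1000) of the 9 genes in the 12 Spc and RS libraries, one panel a gene, with points for libraries and bars for the mean ± SD of 3 libraries. Ybx1, Ybx2, Pabpc1 and Eif4g3 are highest in CTRL RS and low in cKO RS, Dazl and Celf1 are lowest in CTRL RS, but with library size alone as the scale the first 4 genes are lower in CTRL RS than in CTRL Spc, and among them Ybx2 alone stays lower in cKO RS than in CTRL RS.

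The DAZ family went the other way. Dazl (ENSMUSG00000010592, chr17:50279395-50293636, minus strand), which recruits poly(A)-binding protein to the mRNAs it binds, had 2342, 1619 and 1924 normalized counts in CTRL RS and 4112, 4067 and 2829 in cKO RS. cKO library 3 was nearer to the controls than the other two, and the groups did not overlap. Dazl rose by a log2 fold change of 0.92 ± 0.18 (edgeR adjusted p = 0.0019), 1.54 with library size alone (adjusted p = 7.9e-05), and 0.81 relative to the median gene. Boll (ENSMUSG00000025977, chr1:55248658-55363469, minus strand), the most conserved member of the family and needed in spermatids, had 4144, 3794 and 4281 in CTRL RS and 5711, 5305 and 6031 in cKO RS. All 3 cKO libraries were above all 3 controls, with a log2 fold change of 0.49 ± 0.08 (edgeR adjusted p = 0.00071; 1.11 with library size alone). Boll lay at 0.38 relative to the median gene.

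Elavl1 and Celf1, which bind stability elements, moved apart. Celf1 (ENSMUSG00000005506, chr2:90940382-91019497, plus strand) had 892, 816 and 853 normalized counts in CTRL RS and 1840, 1554 and 1409 in cKO RS. The log2 fold change was 0.92 ± 0.12 (edgeR adjusted p = 0.00022), 1.54 with library size alone and 0.81 relative to the median gene. Elavl1 (ENSMUSG00000040028, chr8:4285382-4325413, minus strand) had 2846, 2942 and 3234 in CTRL RS and 2636, 2533 and 2443 in cKO RS. The gap between its groups was narrow, the log2 fold change of -0.23 ± 0.08 (edgeR adjusted p = 0.029) became 0.39 with library size alone (adjusted p = 0.0025), and the call was lost without any one of RS CTRL 3 (adjusted p = 0.1), RS cKO 1 (0.1), RS cKO 2 (0.093) or RS cKO 3 (0.19). Elavl1 lay at -0.34 relative to the median gene. Tarbp2 (ENSMUSG00000023051, chr15:102518192-102523676, plus strand) had 8247, 8205 and 8008 in CTRL RS and 7600, 8369 and 7980 in cKO RS, with overlapping groups and a log2 fold change of -0.02 ± 0.06 (edgeR adjusted p = 0.8). The value was 0.60 with library size alone (adjusted p = 3.5e-05), and relative to the median gene it was -0.13.

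The initiation factors fell beside the Y-box genes. Pabpc1 (ENSMUSG00000022283, chr15:36595661-36609668, minus strand) had 158191, 155857 and 160362 normalized counts in CTRL RS and 100199, 106559 and 109462 in cKO RS. The libraries of each genotype lay close together and apart from the other genotype, with a log2 fold change of -0.57 ± 0.06 (edgeR adjusted p = 5.4e-05). Eif4g3 (ENSMUSG00000028760, chr4:137993022-138208508, plus strand) had 38838, 39362 and 41068 in CTRL RS and 25624, 27789 and 27765 in cKO RS, a log2 fold change of -0.54 ± 0.06 (edgeR adjusted p = 8.8e-05). Relative to the median gene, Pabpc1 lay at -0.68 and Eif4g3 at -0.65. Both were near 0 with library size alone, at 0.05 (adjusted p = 0.32) and 0.08 (adjusted p = 0.16).

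**Figure D2:**
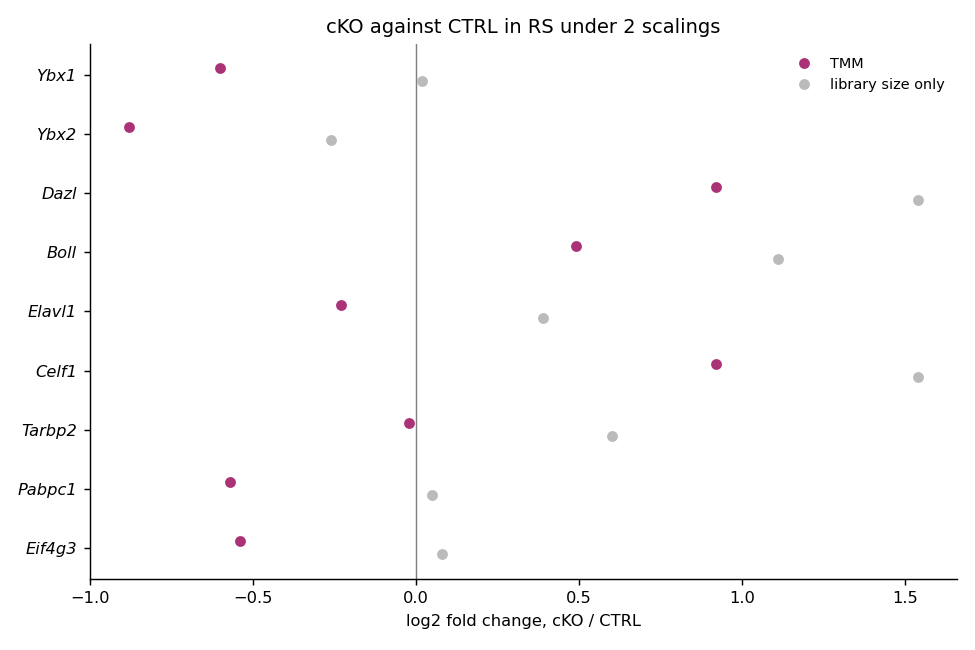
Log2 fold change of each gene in cKO against CTRL RS with TMM scaling and with library size as the only scaling. Every value shifts up by the same amount, so that Ybx1, Pabpc1 and Eif4g3 move from below 0 to near 0, Elavl1 and Tarbp2 to above 0, and Ybx2 stays lower at -0.26.

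Ratios of 2 members' counts within a library do not depend on the scaling. The pairs were chosen after their values were seen, and the ratios are of counts, not of levels per length. Ybx2 counts were 1.98 times the Ybx1 counts in CTRL RS (log2 ratio 0.99 ± 0.09, SD, n = 3) and 1.63 times in cKO RS (0.71 ± 0.04), whereas in Spc the log2 ratios were 0.94 ± 0.06 and 0.91 ± 0.06. The fall in RS was thus greater for Ybx2 than for its paralog, and the highest cKO ratio of 0.75 was below the lowest CTRL ratio of 0.91. The Celf1 to Elavl1 log2 ratio was -0.67 ± 0.16 in CTRL Spc and -1.81 ± 0.13 in CTRL RS, but -0.67 ± 0.14 in cKO RS. The mean of cKO spermatids was thus at that of control spermatocytes. Pabpc1 and Eif4g3, by contrast, kept a like ratio in Spc and RS, with log2 values of 2.12 ± 0.08 and 2.09 ± 0.09 in CTRL and cKO Spc and of 1.99 ± 0.03 and 1.96 ± 0.02 in RS. In CBs it was lower and differed between genotypes, at 1.01 ± 0.16 in CTRL (n = 4, lowest 0.90) and 0.46 ± 0.43 in cKO (n = 3, highest 0.79), without overlap. Dazl counts were 0.0172 of the Ybx2 counts in CTRL RS (log2 ratio -5.86 ± 0.23) and 0.0597 in cKO RS (-4.07 ± 0.36), the widest shift among these pairs.

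In Spc, no member changed between genotypes. None of the 9 passed edgeR's test, where 28.2% of 17321 genes did (14% higher and 14.1% lower), and 2 of 9 did not overlap between genotypes (47.7% of all genes). Before adjustment 2, Boll and Pabpc1, were under 0.05, for which no share over all genes was computed. DESeq2 also called 0 of 9, and over all genes it called 2995 higher and 3164 lower. Scaled among the Spc libraries only, Boll had 6592, 6701 and 6952 normalized counts in CTRL and 8337, 7190 and 8124 in cKO libraries, all above the controls, with a log2 fold change of 0.22 ± 0.08 (edgeR adjusted p = 0.071), and without Spc cKO 2 it was 0.31 (adjusted p = 0.037). Pabpc1 had 148694, 134042 and 135268 in CTRL and 129976, 120605 and 123518 in cKO Spc, a log2 fold change of -0.16 ± 0.07 (edgeR adjusted p = 0.1). Ybx1 (-0.03 ± 0.09, adjusted p = 0.84) and Ybx2 (-0.06 ± 0.07, adjusted p = 0.55) had log2 fold changes smaller than their standard errors. The remaining 5 lay between -0.17 for Celf1 and 0.07 for Tarbp2 and Dazl, and scaling mattered little here, the median gene moving from -0.01 to 0.02.

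**Figure D3:**
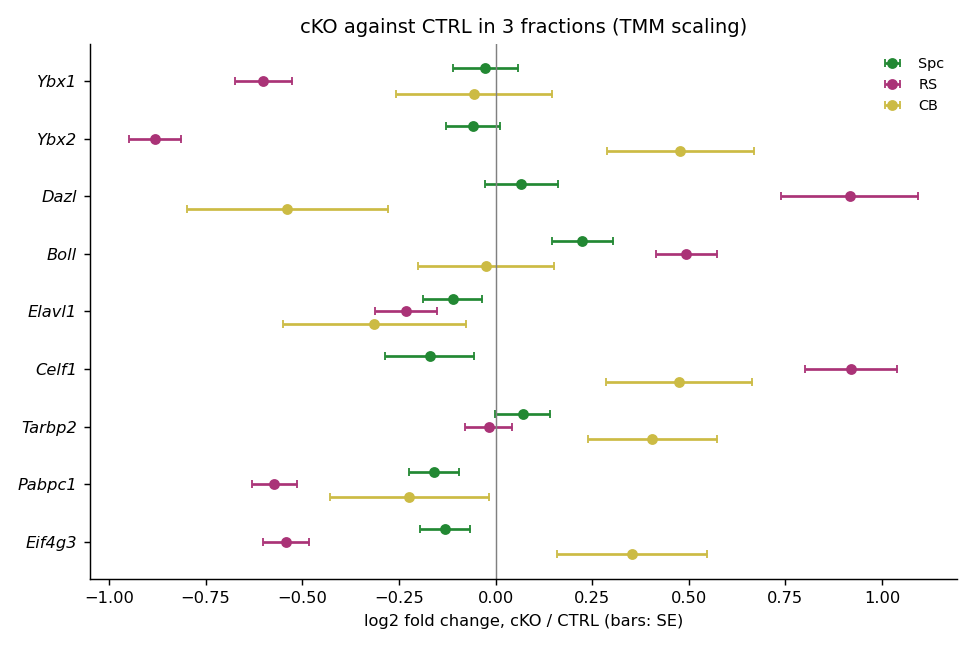
Log2 fold change of cKO against CTRL with its SE for each gene in Spc, RS and CBs (TMM scaling). Values in Spc lie near 0, those in RS split into 5 lower and 3 higher genes, and in CBs Ybx2, Dazl, Boll, Tarbp2 and Eif4g3 lie on the other side of 0 from RS. Directions in RS for Ybx1, Elavl1, Tarbp2, Pabpc1 and Eif4g3 turn with library size as the only scaling.

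The genotype by stage interaction tested whether the cKO difference in RS was another than in Spc. It passed for 6 of 9 members (43.1% of 18171 genes, 19% more positive in RS and 24.1% more negative), 2 with a more positive and 4 with a more negative difference in RS, a tally that went to 6 more positive and 1 more negative with library size alone, where 93.7% of the genes that passed were positive. Celf1 (0.97 ± 0.17, edgeR adjusted p = 0.0016) and Dazl (0.73 ± 0.22, adjusted p = 0.022) were more positive, although without RS cKO 1 Dazl was at 0.64 (adjusted p = 0.055). Ybx2 (-0.94 ± 0.10, adjusted p = 2e-04), Ybx1 (-0.70 ± 0.13, adjusted p = 0.0019), Pabpc1 (-0.54 ± 0.08, adjusted p = 0.00094) and Eif4g3 (-0.53 ± 0.08, adjusted p = 0.00091) were more negative. Boll (0.15 ± 0.12, adjusted p = 0.34), Elavl1 and Tarbp2 (both adjusted p = 0.1) did not pass. The median gene went from -0.13 to 0.58 with library size alone, and the values of Ybx1 (0.01), Eif4g3 (0.17, adjusted p = 0.062) and Pabpc1 (0.17, adjusted p = 0.021) turned positive, so that Pabpc1 passed in the opposite direction, Boll (0.86, adjusted p = 0.00019), Elavl1 (0.47, adjusted p = 0.0048) and Tarbp2 (0.50, adjusted p = 0.0012) passed, and Ybx2 stayed negative at -0.23 (adjusted p = 0.0075). Relative to the median gene, where the scale drops out, Celf1 was at 1.10, Dazl at 0.86, Ybx2 at -0.81 and Ybx1 at -0.57.

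From Spc to RS in controls, the members fell into 2 sets. Dazl, Boll, Elavl1, Celf1 and Tarbp2 were lower in RS, and Ybx2, Pabpc1 and Eif4g3 higher. That is 8 of 9 by edgeR's test, where 75.9% of 17046 genes changed (36.2% higher and 39.7% lower), and all 9 genes did not overlap between stages (80.6% of all genes). Celf1 went from 2090, 2794 and 2517 normalized counts in CTRL Spc to the 892, 816 and 853 of CTRL RS, the one member past a log2 fold change of 1.5 (-1.66 ± 0.12, edgeR adjusted p = 6.5e-05; 34% of all genes were past it). Dazl went from 3406, 2923 and 3224 to 1619 to 2342 (-0.83 ± 0.14, adjusted p = 0.0012) and Boll from 5815, 6057 and 6277 to 3794 to 4281 (-0.70 ± 0.07, adjusted p = 2e-04). Both DAZ family genes thus had their lower level in control spermatids. Elavl1 went from 3757, 4076 and 3896 to 2846 to 3234 (-0.51 ± 0.08, adjusted p = 8e-04) and Tarbp2 from 9164, 10230 and 9311 to 8008 to 8247 (-0.36 ± 0.07, adjusted p = 0.0029).

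The rises in control RS were smaller than the falls by the fold changes with TMM scaling within the controls. This order did not hold relative to the median gene. There Eif4g3 (0.42), Ybx2 and Pabpc1 (both 0.29) rose by more than Tarbp2 fell (-0.28). Eif4g3 went from 29433, 29665 and 27067 in CTRL Spc to 38838 to 41068 in CTRL RS (0.34 ± 0.07, edgeR adjusted p = 0.0044), Pabpc1 from 131165, 121163 and 122133 to 155857 to 160362 (0.21 ± 0.07, adjusted p = 0.031) and Ybx2 from 90723, 90369 and 85936 to 106092 to 118208 (0.21 ± 0.07, adjusted p = 0.032). Ybx1, from 45665, 46813 and 46679 to 54504 to 60387, did not pass (0.16 ± 0.07, adjusted p = 0.066) but did by DESeq2 (0.23, adjusted p = 0.0018). The calls of Ybx2 and Pabpc1 were narrow. Ybx2 lost its call without Spc CTRL 2 (adjusted p = 0.11), Spc CTRL 3 (0.17), RS CTRL 1 (0.074) or RS CTRL 3 (0.097), and Pabpc1 without Spc CTRL 2 (0.15), Spc CTRL 3 (0.15), RS CTRL 1 (0.065), RS CTRL 2 (0.066) or RS CTRL 3 (0.074). These directions rest on the scaling. With library size alone the median gene moved from -0.08 to -0.54 and the share of changed genes that were higher in RS from 47.7% to 32.2%, and no member was higher in RS while 8 were lower, with Ybx1 at -0.30, Ybx2 at -0.25, Pabpc1 at -0.25 and Eif4g3 at -0.12 (the last with adjusted p = 0.12). Relative to the median gene, where the scale drops out, Eif4g3 lay at 0.42, Ybx2 and Pabpc1 at 0.29 and Ybx1 at 0.24. The others lay at -0.28 for Tarbp2, -0.43 for Elavl1, -0.62 for Boll, -0.75 for Dazl and -1.58 for Celf1.

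**Figure D4:**
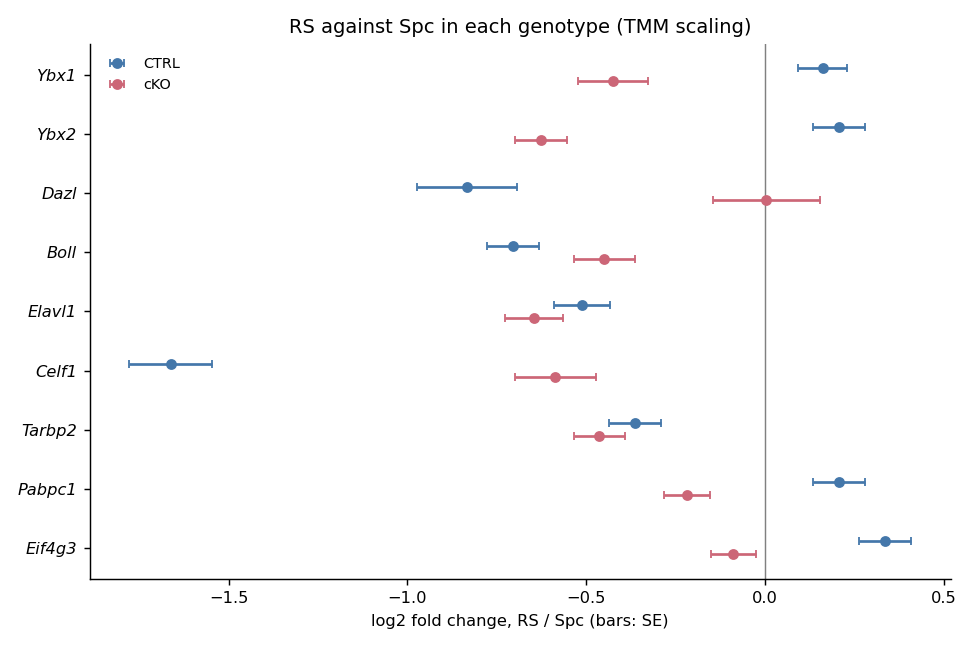
Log2 fold change of RS against Spc with its SE for each gene in CTRL and in cKO (TMM scaling). Ybx1, Ybx2, Pabpc1 and Eif4g3 lie above 0 in CTRL (below 0 with library size as the only scaling) and below 0 in cKO, and Dazl and Celf1 lie lower in CTRL than in cKO.

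In cKO mice the same step gave 7 lower members and none higher, where 45.4% of 17709 genes changed (18.9% higher and 26.4% lower), and 8 of 9 did not overlap (58.7% of all genes). Ybx2 went from 100823, 90929 and 84846 normalized counts in cKO Spc to 57194 to 62956 in cKO RS (-0.63 ± 0.07, edgeR adjusted p = 0.00062), and Ybx1 from 56429, 47272 and 43862 to 33983 to 39138 (-0.42 ± 0.10, adjusted p = 0.0099). Without Spc cKO 1, the highest of its group, Ybx1 was at -0.27 (adjusted p = 0.058), and without RS cKO 1 at -0.28 (0.061). Dazl had 3650, 3385 and 3761 in cKO Spc and 2829 to 4112 in cKO RS, with overlapping groups and a log2 fold change of 0.00 ± 0.15 (adjusted p = 0.99). Celf1 fell by less than in controls, at -0.59 ± 0.11 (adjusted p = 0.0049), and Boll (-0.45 ± 0.09), Elavl1 (-0.65 ± 0.08), Tarbp2 (-0.46 ± 0.07) and Pabpc1 (-0.22 ± 0.07, adjusted p = 0.028) also fell. Eif4g3 did not pass (-0.09 ± 0.06, adjusted p = 0.27), and the call of Pabpc1 was lost without any single library of the 6, at -0.10 (adjusted p = 0.18, without RS cKO 1) to -0.23 (0.052, without RS cKO 2), and by DESeq2 (-0.18, adjusted p = 0.17). Scaled by library size alone, the median gene moved from 0.01 to 0.16, Eif4g3 turned to 0.05, and Pabpc1 at -0.08 no longer passed (adjusted p = 0.16). On that scale 6 members were lower and 0 higher, while the share of changed genes that were higher in RS went from 41.7% to 55.0%. Genotype and stage comparisons share libraries and are not independent of each other.

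The CB libraries give the RNA that remained with DDX4-positive granules. No member changed there with genotype, 0 of 9 where 36.6% of 14051 genes did (18.1% higher and 18.4% lower), and 2 of 9 did not overlap (39.7% of all genes). Before adjustment 3 (Ybx2, Celf1 and Tarbp2) were under 0.05, for which no share over all genes was computed. DESeq2 called 1 member, and over all genes it called 2372 higher and 2619 lower. Counts here were scaled among the 7 CB libraries and are not on the scale of the RS counts. Ybx2 had 5035, 3600, 4328 and 3666 normalized counts in CTRL CBs (libraries 1, 2, 3 and 5) and 5151, 6250 and 5973 in cKO CBs (libraries 2, 3 and 4). All 3 cKO libraries were above all 4 controls, with a log2 fold change of 0.48 ± 0.19 (edgeR adjusted p = 0.064; DESeq2 adjusted p = 0.03). Tarbp2 was the other gene without overlap, with 358, 300, 285 and 348 against 382, 416 and 483 (0.41 ± 0.17, edgeR adjusted p = 0.07). Celf1 had 231, 237, 186 and 192 in CTRL and 349, 302 and 235 in cKO CBs, where the lowest cKO library lay just under the highest control (0.48 ± 0.19, edgeR adjusted p = 0.063; 0.64 without that library, cKO 4, adjusted p = 0.024).

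Dazl in CBs had 212, 221, 122 and 218 normalized counts in CTRL and 184, 117 and 101 in cKO libraries. CTRL 3 stood apart from the others, low at the level of the cKO libraries. It is one of 2 controls, CTRL 2 and CTRL 3, whose column headers carry the letters MVH, which those of the other 5 CB libraries lack, and whether they were prepared in another way is not given in the sources used here. The raw counts behind these values were as few as 40 to 472 per library. The log2 fold change was -0.54 ± 0.26 (edgeR adjusted p = 0.12). Without CTRL 3 it was -0.69 (adjusted p = 0.041), without both controls with MVH headers -0.71 (0.089), and without cKO 2 it was -0.90 (adjusted p = 0.017). Eif4g3 (3057, 2502, 2865 and 3170 against 2848, 4459 and 3809) had a log2 fold change of 0.35 ± 0.19 (edgeR adjusted p = 0.17), and Ybx1 (1281, 1108, 1312 and 1692 against 1155, 1067 and 1664) of -0.05 ± 0.20 (adjusted p = 0.86). Boll (-0.03 ± 0.18), Elavl1 (-0.31 ± 0.24) and Pabpc1 (-0.22 ± 0.21) did not pass either, Pabpc1 with 5723, 4958, 5343 and 7499 in CTRL and 4916, 4350 and 5850 in cKO libraries. On the library size scale the median gene moved from 0.07 to -0.08 and Ybx2 to 0.33 (adjusted p = 0.43).

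**Figure D5:**
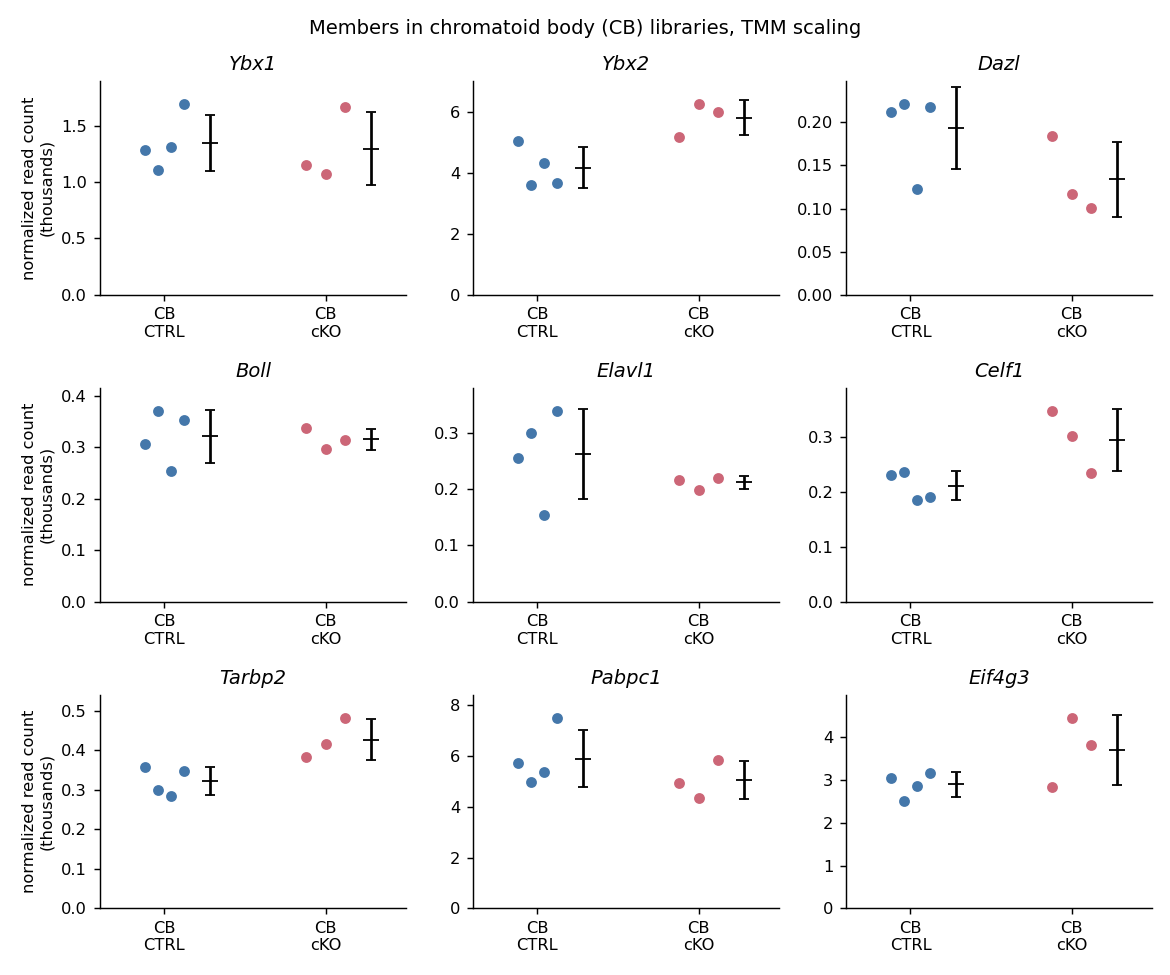
TMM-normalized counts (axis in units of 1000) of the 9 genes in the 7 CB libraries, one panel a gene, with points for libraries and bars for the mean ± SD of 4 CTRL and 3 cKO libraries. Ybx2 and Tarbp2 have all cKO points above all CTRL points, Dazl has a low CTRL 3, and the other genes overlap.

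Whether the cKO difference in CBs was another than in RS was tested by the interaction of genotype and compartment, a test added after the values of both comparisons had been seen. RS and CB libraries differ in kit and RNA fraction, which is shared by both genotypes of a compartment and so drops out of the difference only where it acts alike on both. It passed for 4 of 9 members (23.8% of 13865 genes, 9.38% more positive in CBs and 14.4% more negative). Ybx2, lower in cKO RS and not in cKO CBs, had a difference of 1.18 ± 0.22 (edgeR adjusted p = 0.0015), and Eif4g3 of 0.71 ± 0.21 (adjusted p = 0.024). Dazl, higher in cKO RS and not in cKO CBs, had a difference of -1.64 ± 0.34 (adjusted p = 0.0033), and Boll of -0.70 ± 0.19 (adjusted p = 0.015). Celf1 (-0.62 ± 0.23, adjusted p = 0.057; 0.049 without CB CTRL 3 and 0.019 without CB cKO 2), Ybx1 (0.37 ± 0.24, adjusted p = 0.29), Elavl1, Tarbp2 and Pabpc1 did not pass. The scaling by library size alone took the median gene from -0.08 to -0.66, Ybx2 (0.59, adjusted p = 0.098) and Eif4g3 (0.10, adjusted p = 0.78) lost the call, Dazl (-2.22) and Boll (-1.29) kept it, and Celf1 gained it (-1.20, adjusted p = 0.0072), which made 0 more positive and 3 more negative. Eif4g3 also lost it without RS CTRL 3 (adjusted p = 0.06), RS cKO 1 (0.07) or CB cKO 3 (0.06). Within CB libraries the Ybx2 to Ybx1 count ratio was 3.09 in CTRL (log2 ratio 1.63 ± 0.36, SD, n = 4) and 4.54 in cKO (2.18 ± 0.35, n = 3), with overlapping values, against the fall from 1.98 to 1.63 in RS. The marker sums that moved with genotype in RS and in CBs, given at the start, stand beside these differences, and their part was not tested.

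The genes compare with each other only per length. In CPM of gene counts per kilobase of exon, Ybx2 led in every group, with 1220 ± 34.1 (SD, n = 3) in CTRL Spc, 1030 ± 21.4 in CTRL RS and 857 ± 26.1 in cKO RS. Pabpc1 (493 ± 7.67 in CTRL Spc, 416 ± 8.35 in CTRL RS) and Ybx1 (474 ± 19.7 and 386 ± 21.3) followed, and their ranges overlapped in CTRL RS but not in CTRL Spc. Levels depend on the length used. With the longest transcript in place of all exons of a gene, Pabpc1 was at 1110 in CTRL Spc and 932 in CTRL RS and Ybx1 at 737 and 601, no longer close to each other. Then came Eif4g3 at 67.1 ± 3.12, Tarbp2 at 54.5 ± 4.39, Boll at 44.6 ± 2.86, Dazl at 21.5 ± 1.24, Elavl1 at 9.77 ± 0.642 and Celf1 at 7.58 ± 1.27 in CTRL Spc, where no neighbours in this order overlapped. In CTRL RS, Celf1 was at 1.74 ± 0.0662, so that Ybx2 exceeded it by a greater factor than in CTRL Spc or in cKO RS, where it was at 5.06 ± 0.806. In CTRL CBs, Ybx2 was at 362 ± 71 (n = 4), Pabpc1 at 149 ± 41.8, Ybx1 at 88 ± 22.7 and Eif4g3 at 43.2 ± 7.95, and the lower 5 genes, from Boll at 15.3 ± 4.19 to Celf1 at 4.16 ± 0.936, each overlapped their neighbour. CB and RS levels stand side by side only, since the CB RNA was not selected for poly(A). The 9 genes took 0.804% to 0.826% of gene counts in CTRL Spc, 0.655% to 0.668% in CTRL RS, 0.654% to 0.687% in cKO RS and 0.193% to 0.313% in CTRL CBs.

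SMG6 acts on mRNAs that carry NMD features, and among the members Boll and Tarbp2 have annotated transcripts of the nonsense-mediated decay biotype. In round spermatids the study linked SMG6 to long 3' untranslated regions, and found no enrichment of exon junctions after the stop codon. In the most counted coding transcript of each gene, these regions had 6132 bases in Celf1, 4218 in Elavl1 and 2354 in Eif4g3. They had 1852 in Dazl and 1786 in Boll, but 439 in Pabpc1, 418 in Ybx1, 414 in Ybx2 and 334 in Tarbp2. Their part was not tested. The 9 genes have 69 transcripts in the transcript table, whose fractional counts let overlapping transcripts of a gene share reads, so transcripts of one gene are not independent. Overlapping transcripts had near-equal counts, such as 12.3% of the gene's counts in CTRL Spc for each of Celf1-207, Celf1-214 and Celf1-202. Such counts do not measure the amount of each isoform. None of the 66 tested changed in Spc (28.6% of all transcripts did). In RS 51 of 65 changed (74.9% of all, 38.9% higher and 36% lower), 18 higher and 33 lower, and in CBs 11 of 61 (35.9% of all, 17.8% higher and 18.1% lower), 10 higher and 1 lower, a number that fell to between 2 and 7 in several alternatives. None passed a log2 fold change of 1.5 between genotypes with TMM scaling. From Spc to RS 57 of 65 changed in CTRL (25 higher and 32 lower; 78.6% of all, 37.3% higher and 41.4% lower) and 42 of 65 in cKO (0 higher and 42 lower; 51.1% of all, 23.4% higher and 27.7% lower). These numbers rest in part on single libraries, since the 57 went to 36 without Spc CTRL 3, and the 42 to 24 without Spc cKO 1, 23 without RS cKO 2 and 27 without RS cKO 3. The splits into higher and lower transcripts are those of TMM scaling. With library size alone the gene values of Ybx1, Pabpc1 and Eif4g3 turned sign in RS, and also from Spc to RS in CTRL. Transcripts of a gene moved together in RS. All 7 of Boll were higher, among them the NMD transcripts ENSMUST00000159564 (0.59 ± 0.08, edgeR adjusted p = 0.00056) and ENSMUST00000161810 (0.44 ± 0.07, adjusted p = 0.00094), beside the most counted coding one, Boll-206 (0.50 ± 0.10, adjusted p = 0.0025). These were chosen for their annotation after the values were seen. Tarbp2-203, an NMD transcript, overlaps the coding Tarbp2-201 and can share reads with it. Each had 11.8% of the gene's transcript counts in CTRL Spc. Tarbp2-203 was at 0.08 ± 0.07 in RS (adjusted p = 0.28) and at 0.62 ± 0.17 in CBs (adjusted p = 0.018). Other Tarbp2 transcripts rose there as well, such as Tarbp2-201 (ENSMUST00000023813; 0.57 ± 0.18, adjusted p = 0.031). The share of a gene's transcript level held by transcripts of other than protein-coding biotype was compared for 7 genes in 3 compartments by a two-sided exact permutation test. Shared reads tie this share to exon overlap and length, so the test cannot decide on isoform amounts. For Pabpc1 the share was 69.1% in CTRL and 69.3% in cKO Spc, and 69.1% and 69.2% in RS. None of these 21 tests passed after adjustment (lowest adjusted p = 0.42), and the smallest p that 3 against 3 libraries allow is 0.1 and that 3 against 4 allow is 0.0571. In 5 of the 21 the groups did not overlap, which by itself gives that smallest p. No rate over all genes was computed, so these are listed as a description only. The share was lower in cKO for Boll in CBs, 44.9% ± 7.57 in cKO (n = 3) and 53.8% ± 2.76 in CTRL (n = 4; exact p = 0.0571), Eif4g3 in CBs, 32.3% ± 4.03 in cKO (n = 3) and 37.2% ± 1.34 in CTRL (n = 4; exact p = 0.0571), and Celf1 in RS, 27.4% ± 0.281 in cKO and 30.3% ± 1.63 in CTRL (n = 3 each; exact p = 0.1). It was higher in cKO for Eif4g3 in RS, 42.1% ± 0.47 in cKO and 40.5% ± 0.268 in CTRL (n = 3 each; exact p = 0.1), opposite to its CBs, and for Ybx2 in Spc, 44.6% ± 0.204 and 44% ± 0.442 (n = 3 each; exact p = 0.1).

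Among 70 other genes of translational RNA-binding families, 69 were in the table. In RS 25 of 66 tested were higher and 30 lower in the cKO by edgeR's test, in Spc 7 of 65 were higher and 12 lower, and in CBs 10 of 61 were higher and 14 lower, with medians of -0.04, -0.08 and -0.05. Over all genes 38.4% were higher and 34.3% lower in RS, 14% and 14.1% in Spc, and 18.1% and 18.4% in CBs. The counts by family that follow are descriptions without a test. Of the factors of eIF4F and its regulators, 3 were higher and 8 lower of 13 in RS (median -0.60), a split that turned to 6 higher and 3 lower with library size alone. Poly(A)-binding proteins and partners were at 4 higher and 6 lower of 11 (4 and 3 with library size alone), and the CPEB and cytoplasmic polyadenylation genes at 1 higher and 5 lower of 7 (2 and 4). Genes of DAZ partners, PUF, NANOS and STAR proteins were at 6 higher and 1 lower of 8 (7 and 0), double-stranded RNA-binding proteins and partners at 3 higher and 2 lower of 8 (5 and 0), FMR1 family genes at 4 higher and 1 lower of 6 (5 and 1), ELAVL and CELF paralogs at 2 higher and 4 lower of 8 (4 and 3) and other Y-box and cold shock genes at 2 higher and 3 lower of 5 (2 and 2). The highest log2 fold changes in RS were those of Khdrbs1 (2.69), which encodes the STAR protein SAM68, G3bp1 (1.84), Lin28b (1.79) and Pabpc4 (1.64), and the lowest those of Cpeb3 (-3.29), Elavl4 (-2.72), Carhsp1 (-2.41) and Eif4g1 (-2.04), and none of these 8 changed sign with library size alone. Cpeb3 was also lower in Spc (-1.88 ± 0.47, edgeR adjusted p = 0.027) and CBs (-1.67 ± 0.19, adjusted p = 7.9e-05). Khdrbs1 rose in Spc (1.51 ± 0.08, adjusted p = 0.00017). In CBs, Celf3 fell (-1.57 ± 0.23, adjusted p = 0.00027) and Pabpc4 rose (1.55 ± 0.38, adjusted p = 0.0072).

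Paralogs of the members did not all follow them. Ybx3, another Y-box gene, fell in RS with Ybx1 and Ybx2 (-0.63 ± 0.07, edgeR adjusted p = 0.00013), and like Ybx1 it lay near 0 with library size alone (-0.01). In CBs it was at 0.11 ± 0.19 (adjusted p = 0.67). Eif4g1, whose protein shares the scaffold role of EIF4G3, fell in RS (-2.04 ± 0.14, adjusted p = 7.2e-06; -1.42 with library size alone), in Spc (-0.88 ± 0.24, adjusted p = 0.035) and in CBs (-0.96 ± 0.19, adjusted p = 0.0018), where Eif4g3 did not pass. Of the poly(A)-binding paralogs, Pabpc1l fell in RS (-1.60 ± 0.36, adjusted p = 0.0041; -0.97 with library size alone, adjusted p = 0.036) and in CBs (-1.16 ± 0.28, adjusted p = 0.0061). Pabpc2 fell in RS (-0.62 ± 0.06, adjusted p = 3.2e-05; -0.01 with library size alone) and in Spc (-0.26 ± 0.08, adjusted p = 0.043), Pabpc5 did not pass in RS (0.28 ± 0.35, adjusted p = 0.49), and Pabpc6 (0.66 ± 0.07, adjusted p = 9.2e-05; 1.28) and Pabpc4 (1.64 ± 0.19, adjusted p = 0.00011; 2.26) rose. Pabpc2 and Pabpc6 are retrocopies close in sequence to Pabpc1, and reads may be shared among them, so their values are uncertain.

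Of 10 mRNAs known as targets of the members, 9 were lower and Sycp3 was higher in cKO RS (6 past 1.5, median -2.88; 34.3% of all genes were lower and 26.4% past 1.5 either way), 7 were lower and none higher in Spc (median -1.38) and 7 lower and none higher in CBs (median -2.09). Prm1, Prm2, Tnp1, Tnp2 and Smcp, which are 5 of the 6 past 1.5, and Pgk2, the other one, are also on the spermatid or late spermatid marker lists, and Sycp3 is on the spermatocyte list, so the targets are not independent of the markers that moved with genotype. Smcp, a stored mRNA that is translated late, was at -3.81 ± 0.11 in RS (edgeR adjusted p = 1.6e-07), and Pgk2, a glycolytic gene of spermatids under translational control, at -1.96 ± 0.07 (adjusted p = 3.3e-07). Hspa2, whose protein depends on EIF4G3 in spermatocytes, was at 0.03 ± 0.07 in Spc (adjusted p = 0.78) and -0.44 ± 0.07 in RS (adjusted p = 0.00059; 0.17 with library size alone, adjusted p = 0.038), and Sycp3, a DAZL target of the synaptonemal complex, at 0.77 ± 0.09 in RS (adjusted p = 0.00011). Scaled by library size alone, 7 targets were lower and 2 higher in RS. These are RNA counts, and protein made from the mRNAs was not analysed here.

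Over the 12 Spc and RS libraries, the genes with a pattern most like each member, among 13061 genes whose normalized counts averaged 100 or more, were found by the correlation of log2 CPM, given as a description, since the points share 4 groups. They were Cetn1 and Rpl30 for Ybx1 (r = 0.98 and 0.974), Txn2 and Hnrnpf for Ybx2 (both 0.984), Plekhh1 and Uba6 for Dazl (0.975 and 0.972), Snrpe and Mccc1 for Boll (0.99 and 0.988), Hnrnpd and Mrpl52 for Elavl1 (0.986 and 0.984), Abl2 and Phip for Celf1 (0.993 and 0.992), Olfm2 and Tbl2 for Tarbp2 (both 0.975), Psmc3 and Cct5 for Pabpc1 (0.996 and 0.993) and Map2k7 and Usp2 for Eif4g3 (0.988 and 0.985). Among the members themselves, Ybx1 and Ybx2 (r = 0.96) and Pabpc1 and Eif4g3 (r = 0.93) ran closest together, followed by Ybx2 and Pabpc1 (r = 0.91), and Dazl and Eif4g3 (r = -0.91) were the most opposed of the pairs given here.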

How the data were processed

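RNA-seq counts of Spc, RS and CBs were used. Reads were trimmed by the authors (cutadapt 2.8), mapped with STAR 2.7.1a on GRCm38 and counted for genes and transposable elements by TEtranscripts, reverse stranded. The deposited gene tables hold whole-number counts, and the deposited transcript table holds fractional expected counts from featureCounts 2.0.1, rounded here. edgeR 4.0.16 in R 4.3.3 (TMM, quasi-likelihood, two-sided, Benjamini-Hochberg over all features) was fitted to each comparison's libraries, with minima of 10 counts for a gene and 20 for a transcript in at least 3 libraries. Normalized counts were divided by TMM-scaled library sizes over the 12 Spc and RS libraries, over the 7 CB libraries, or within a comparison where stated. Transcripts were matched to GENCODE vM21 (98.1%). Tests were tried on simulated data. Alternatives were DESeq2 1.42.0, library size alone, no count filter, summed transcripts, a replicate block and leaving out single libraries. Leaving out CB controls and the CB against RS test were added later. Members and lists were chosen with earlier results of these data known. The 9 members are always named, of the wider list at most 4 higher and 4 lower per comparison past a log2 fold change of 1.5, paralogs beside their member, and the 2 most similar genes each. Target, marker and transcript examples beyond this were picked after their values were seen. Columns of the authors' own fold changes were not used, and Python 3.11.15 did the rest.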

Additional observations from a re-analysis of the deposited data

Results flagged for a closer look

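In the 4 CB controls, Dazl had 1 library, CTRL 3, far from the rest, which is one of the 2 with MVH in the column header. Its normalized count was 122 where the other 3 were 212 to 221, and the gap to the nearest was 0.904 of the whole range. The limit used, Dixon's at 95%, is passed by chance in about 1 of 20 groups, and the CB controls were looked at for all 9 genes. Without it the cKO difference of Dazl in CBs went from -0.54 (edgeR adjusted p = 0.12) to -0.69 (adjusted p = 0.041).

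The cKO difference in RS differed from that in Spc, by the interaction, for Ybx1 (-0.70), Ybx2 (-0.94), Pabpc1 (-0.54), Eif4g3 (-0.53), Dazl (0.73) and Celf1 (0.97) on the log2 scale. With library size alone, the values of Ybx1, Pabpc1 and Eif4g3 were 0.01, 0.17 and 0.17, that of Pabpc1 past the test (edgeR adjusted p = 0.021).

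The cKO difference in CBs differed from that in RS for Ybx2 (1.18), Eif4g3 (0.71), Dazl (-1.64) and Boll (-0.70). In RS the late spermatid markers summed to a CPM of 23600 to 29200 in CTRL and 2300 to 2470 in cKO libraries, and in CBs to 2770 to 5930 and 414 to 651. The part of cell makeup in these differences was not tested.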

How the results depend on the processing

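The number of changed members kept within 1.5 times its value with library size alone, without the count filter and with the replicate block, in each comparison where that was run. Without the count filter Ybx2 for RS against Spc in CTRL (0.19, adjusted p = 0.052) and Pabpc1 in cKO (-0.16, adjusted p = 0.078) lost their calls. In Spc the number was 0 and went from 0 to 1 as single libraries were left out (Boll, without cKO 2). In CBs it was 0, and 1 by DESeq2 and with summed transcript counts (Ybx2 each time, at 0.46, adjusted p = 0.03, and 0.56, adjusted p = 0.047), and 0 to 1 as libraries were left out, with Dazl at -0.90 without cKO 2 and Celf1 at 0.64 (adjusted p = 0.024) without cKO 4. Leaving out the 2 controls with other column headers gave 0.

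Library size alone turned 19 signs. These were Ybx1 in Spc (0), Ybx1 (0.02), Elavl1 (0.39), Tarbp2 (0.60), Pabpc1 (0.05) and Eif4g3 (0.08) in RS, Ybx1 (-0.30), Ybx2 (-0.25), Pabpc1 (-0.25) and Eif4g3 (-0.12) for RS against Spc in CTRL, Eif4g3 (0.05) in cKO, Ybx1 (0.01), Elavl1 (0.47), Tarbp2 (0.50), Pabpc1 (0.17) and Eif4g3 (0.17) for the interaction, and Ybx1 (-0.21), Tarbp2 (-0.35) and Pabpc1 (-0.41) for CBs against RS. Summed transcripts turned Tarbp2 in RS (0.08) and took the calls of Elavl1 in RS (adjusted p = 0.099), of Ybx2 (0.13) and Pabpc1 (0.11) for RS against Spc in CTRL and of Pabpc1 in cKO (0.086). Single libraries left out turned only values that had passed no test: Ybx1 (-0.10 to 0.07) and Ybx2 (-0.09 to 0.01) in Spc, Tarbp2 in RS (-0.04 to 0.09), Ybx1 (-0.27 to 0.08) and Boll (-0.12 to 0.04) in CBs, and Eif4g3 (-0.11 to 0.03) and Dazl (-0.09 to 0.17) for RS against Spc in cKO.

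In no comparison did all 3 pairs of same-numbered samples deviate together, so the numbers were not taken to pair them. The correlations were 0.17, -0.10 and 0.27 in Spc, -0.12, -0.15 and 0.11 in RS, -0.17, -0.15 and -0.19 for RS against Spc in CTRL, and -0.01, 0.56 and 0.31 in cKO, where the samples numbered 2 and 3 each matched best with their own number, and whether same-numbered RS and Spc libraries share mice is not given in the sources used here. The replicate block left the number of changed members within 1.5 times, took the calls of Elavl1 in RS (adjusted p = 0.071), of Ybx2 (0.077) and Pabpc1 (0.068) for RS against Spc in CTRL and of Pabpc1 (0.078) in cKO, and turned Dazl in cKO (-0.02). No block could be fitted in CBs. Over all single members, leaving out 1 library took 25 calls and added 6, and the cause was not tested. Changed member transcripts in CBs were 3 with library size, 2 without filter and 2 to 12 as libraries were left out (11 with all). Left out in turn, single libraries gave 0 to 3 in Spc (3 without cKO 2), 36 to 51 for RS against Spc in CTRL (36 without Spc CTRL 3, 57 with all) and 23 to 34 in cKO (42 with all). With the length of the longest transcript, most levels were higher, such as Pabpc1 in CTRL Spc (493 to 1110) and Elavl1 (9.77 to 17.6), 5 of 9 members kept their place in the order of cKO Spc, and all 9 did in each of the other 5 groups.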
